A study of Mus musculus with 9 samples.

Results

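Aminoacyl-tRNA synthetases join each amino acid to its tRNA, the step that supplies charged tRNA to the ribosome. Animal cells keep separate nuclear genes for the cytosolic and the mitochondrial enzymes, and the mitochondrial ones carry symbols that end in 2. In the cytosol a group of synthetases sits in a multi-synthetase complex held together by the scaffold proteins Aimp1, Aimp2 and Eef1e1. Many cytosolic synthetase genes are known targets of ATF4, a transcription factor that acts when amino acids run short, and MYC is known to bind genes of protein synthesis.

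The 36 synthetase genes described here were taken by symbol from a count table of 24756 genes, and comprise 20 cytosolic and 16 mitochondrial enzymes. The cytosolic list holds both subunits of the phenylalanine enzyme (Farsa, the catalytic alpha subunit, and Farsb, the beta subunit), the joint glutamyl-prolyl enzyme Eprs, and Gars and Kars, whose genes also make the mitochondrial glycyl and lysyl enzymes. All 36 genes passed the filter on low counts, which kept 10215 genes in all.

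The cells were a mouse acute myeloid leukaemia line, made by retroviral transduction of foetal liver cells with MLL-AF9 under constitutive expression and with FLT3-ITD under a doxycycline-inducible TRE-tight promoter that also drives DsRED. All groups carried both transgenes and grew in medium with added L-asparagine. The ON group stayed in 1 µg/mL doxycycline, and the OFF24 and OFF48 groups were washed and kept without doxycycline for 24 h and 48 h. Each group had 3 libraries of 3' mRNA tags, and the labels do not say whether these were separate cultures; the p-values therefore cover the spread among libraries only, and that spread may be technical. Loss of FLT3-ITD and loss of doxycycline cannot be told apart in this design, and the line is a single one.

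Total counts ran from 1329296 (OFF48 replicate 2) to 4038456 (ON replicate 2). Flt3 had 2 to 10 counts per library and was not tested; a transcript made from a vector ends in vector sequence, so 3' tags in Flt3 do not check the withdrawal. The leukocyte and myeloid markers Ptprc, Spi1, Cebpa, Itgam, Elane, Mpo, Csf3r and Cd34 were all detected in every group, and their summed level rose with time off doxycycline, from 899 to 1166 CPM in ON to 1533 to 1797 in OFF24 and 2277 to 3215 in OFF48. CPM is the read count scaled to a fixed library size after TMM normalisation. The sum was led by Elane (mean 379, 592 and 1015 CPM) and Mpo (69.1, 341 and 759 CPM). Of these 8 markers 6 rose against ON at 24 h by edgeR at an adjusted p under 0.05. At 48 h 6 rose and Cd34 fell (log2 -0.35, adjusted p = 0.0225), while Ptprc passed at neither time (log2 0.21 and 0.05). Among all tested genes 17.8% rose at 24 h, and 23.4% rose and 23.9% fell at 48 h. Of the 7 erythroid markers, Epor, Alas2 and Hbb-bt had no count in any library, as had Cpa3 of the 7 megakaryocyte, mast and basophil, and Alb of the 7 hepatocyte, stromal and endothelial markers. The summed level of the 7 lymphoid markers was 0.983 to 1.43 CPM in ON, 1.49 to 4.18 in OFF24 and 0.75 to 6.12 in OFF48. The erythroid sum, nearly all Tfrc, was 87.2 to 92.3, 78.8 to 97.8 and 110.2 to 125 CPM. The megakaryocyte, mast and basophil sum was 75.5 to 91.6, 68.1 to 76.0 and 82.5 to 96.2 CPM, most of it Gp1bb. Of its 7 genes only Gp1bb, Mcpt8 and Gata2 passed the filter on low counts, and these moved in different directions. Mcpt8 rose at 24 h and 48 h (log2 1.55 and 0.82, adjusted p = 8.41e-05 and 0.0197), Gata2 fell at 48 h (-1.76, adjusted p = 0.00116) and Gp1bb fell at 24 h (-0.47, adjusted p = 0.0127). The hepatocyte, stromal and endothelial sum, led by Pecam1, was 25.8 to 35.5, 43.1 to 58.4 and 54.0 to 62.4 CPM. Only Pecam1 of its 7 genes passed the filter, so the rise of this sum is mostly that of Pecam1. The part of these marker changes in the results that follow was not tested. In bulk RNA, fewer cells of a type and less RNA per cell cannot be told apart.

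The first comparison asks what the synthetase genes did during the first day without doxycycline. Of the 20 cytosolic genes, 17 fell and 0 rose at an adjusted p under 0.05 (edgeR, adjusted over all tested genes), where 17.4% of all tested genes fell and 17.8% rose. Their median log2 fold change was -1.03, beside 0.03 over all tested genes, and 11 of the 20 were at least 2-fold lower than in ON. Of the 16 mitochondrial genes, 2 fell and 0 rose, with a median of -0.24. Both numbers were below the shares of all tested genes. At an unadjusted p under 0.05, 0 genes of either list rose, and DESeq2 and limma also called 0 higher. The summed level of the cytosolic genes was 2865 ± 21.1 CPM in ON (SD, n = 3) and 1500.2 ± 27.0 in OFF24, whereas that of the mitochondrial genes was 218 ± 7.86 and 191 ± 3.80 CPM. No library of OFF24 overlapped ON in either sum.

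**Figure D1:**
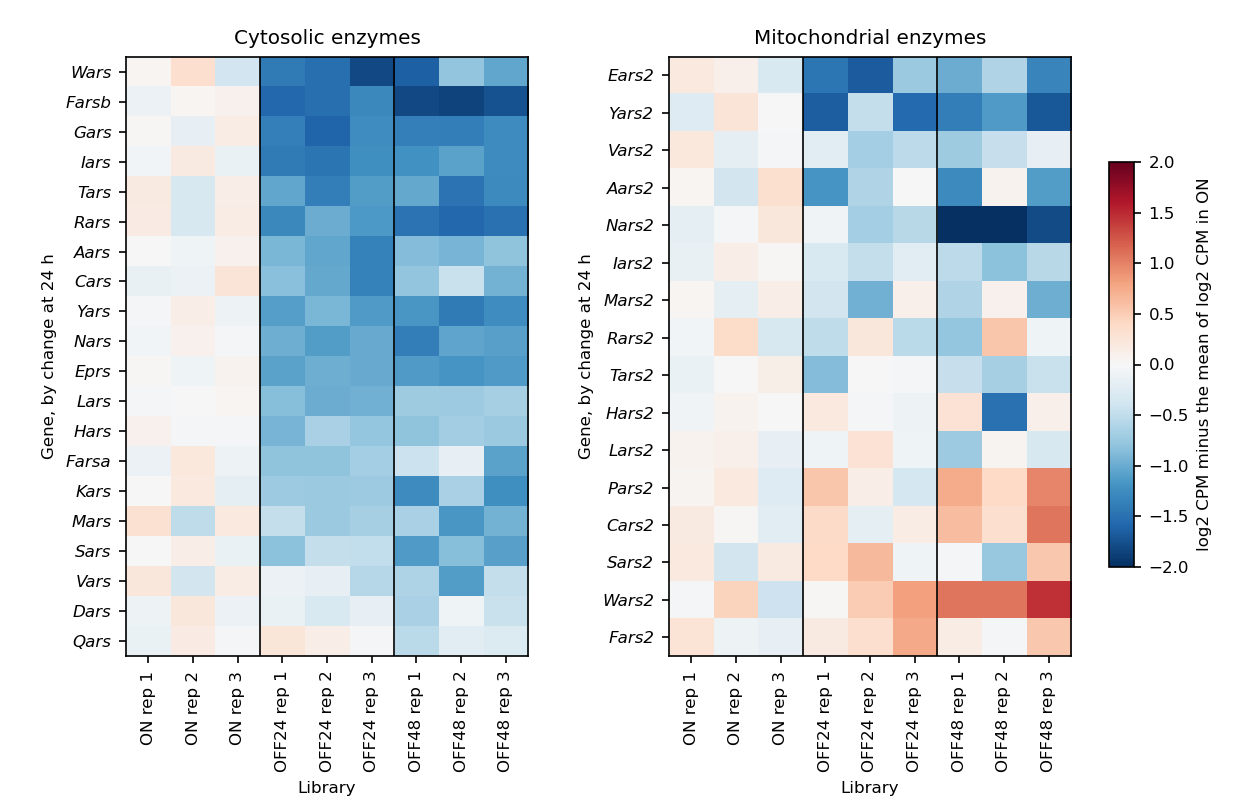
Level of each synthetase gene (rows) in each library (columns) as log2 CPM minus the mean of log2 CPM in ON, with cytosolic genes on the left and mitochondrial genes on the right, both ordered by the change at 24 h. Colours are limited to the range from -2 to 2, which Nars2 passes in OFF48. Most rows on the left are blue in all 6 OFF libraries, whereas on the right Ears2, Yars2 and, at 48 h, Nars2 are blue and Wars2 and Cars2 red at 48 h.

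The largest cytosolic fall at 24 h was that of Wars, the tryptophanyl enzyme. Its level was 32.1, 39.3 and 24.0 CPM in the ON libraries and 11.7, 11 and 8.94 in OFF24 (log2 fold change -1.62, SE 0.22, adjusted p = 1.38e-05). Every OFF24 library lay below every ON library. Farsb, the beta subunit of the phenylalanyl enzyme (chromosome 1, 78417975 to 78488897, minus strand, GRCm38), stood at 170, 189 and 195 CPM in ON and at 61.9, 64.7 and 75.4 in OFF24 (log2 -1.45, SE 0.11, adjusted p = 1.54e-08). Gars, the glycyl enzyme of both compartments (chromosome 6, 55038007 to 55079500, plus strand), fell from 273, 240 and 298 CPM to 104, 89.1 and 114 (log2 -1.40, SE 0.11, adjusted p = 3.87e-08). Neither gene's OFF24 libraries overlapped those in ON. Iars, the isoleucyl enzyme of the complex (chromosome 13, 49682100 to 49734267, plus strand), fell from 86.5, 101 and 81.6 CPM to 33.4, 32.6 and 38.1 (log2 -1.37, SE 0.13, adjusted p = 1.63e-07), again without overlap.

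The other 13 cytosolic genes that fell at 24 h lay between log2 -1.19 (Tars, threonyl) and -0.59 (Sars, seryl), with Rars (arginyl) at -1.14, Aars (alanyl) at -1.10, Yars (tyrosyl) at -1.05, Nars (asparaginyl) at -1.04 and Eprs at -1.02. In 16 of the 17 genes that fell, no OFF24 library overlapped ON. Mars, the methionyl enzyme, was the exception, at 108, 61.7 and 100 CPM in ON and 63.1, 52.1 and 55.1 in OFF24 (log2 -0.66, SE 0.18, adjusted p = 0.00991). Its ON replicate 2 lay within the OFF24 range. These 17 genes had been selected by their fall, and the share of all tested genes without overlap was not computed.

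The 3 cytosolic genes that did not pass at 24 h were Qars, Dars and Vars, the glutaminyl, aspartyl and valyl enzymes, of which Qars and Dars belong to the complex. Qars read 62.5, 76.4 and 66.9 CPM in ON and 81.1, 75.3 and 67.0 in OFF24 (log2 0.11, SE 0.12, adjusted p = 0.51), and the groups overlapped. Dars read 95.6, 119 and 93.8 CPM in ON and 93.6, 82.6 and 90.8 in OFF24 (log2 -0.21, SE 0.13, adjusted p = 0.225), with the highest OFF24 library just under the lowest ON library. Vars read 40, 26.3 and 37.6 CPM in ON and 31.4, 30.4 and 22.9 in OFF24, which overlapped (log2 -0.30, SE 0.18, adjusted p = 0.218). For these genes an approximate 95% interval of the log2 fold change (t with 6 degrees of freedom) ran from -0.19 to 0.42 for Qars, from -0.54 to 0.11 for Dars and from -0.74 to 0.15 for Vars, so a 2-fold fall lay outside each. Without ON replicate 2, the lowest ON library for Vars, the fall of that gene passed the threshold (log2 -0.49, adjusted p = 0.0342).

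**Figure D2:**
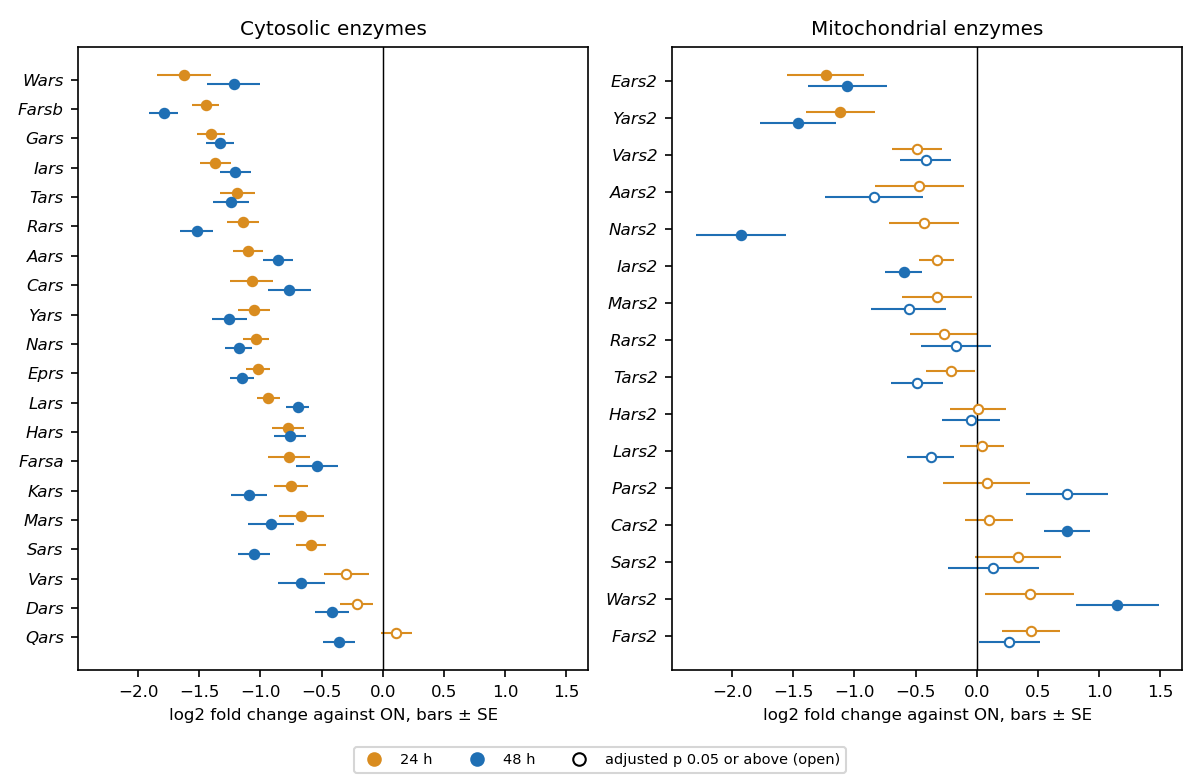
Log2 fold change of each synthetase gene against ON at 24 h (orange) and 48 h (blue), with bars of 1 SE, in the order of the change at 24 h. Filled points have an adjusted p under 0.05, open points do not. All cytosolic points at 48 h are filled and lie left of 0, from -1.79 (Farsb) to -0.36 (Qars), whereas mitochondrial points lie on both sides, from -1.93 (Nars2) to 1.15 (Wars2).

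After 48 h without doxycycline all 20 cytosolic genes were lower than in ON (20 fell, 0 rose, median log2 -1.07), where 23.9% of all tested genes fell and 23.4% rose and the median of all was 0.01. Both comparisons against ON use the same ON libraries, so their values are not independent of each other. The summed cytosolic level was 1455 ± 94.3 CPM in OFF48. Of the 16 mitochondrial genes 4 fell and 2 rose, with a median of -0.40 and a summed level of 185 ± 16.8 CPM. The number of mitochondrial genes that fell was near the share of all tested genes, and the number that rose was below it. In 19 of the 20 cytosolic genes no OFF48 library overlapped ON, and the exception was Dars. The share of all tested genes without overlap was not computed, so this count has no background to be read against. At an unadjusted p under 0.05 in edgeR, and with DESeq2 and limma, 0 cytosolic genes rose.

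Among the cytosolic genes Farsb fell most at 48 h, to 52.7, 51.0 and 55.1 CPM (log2 -1.79, SE 0.12, adjusted p = 4.03e-10), which is 28.9% of its ON level. Rars, the arginyl enzyme of the complex, read 186, 134 and 184 CPM in ON, 68.1, 83.8 and 75.1 in OFF24 and 59.7, 56.2 and 58.9 in OFF48 (48 h log2 -1.52, SE 0.14, adjusted p = 2.99e-08). The ON libraries of Rars stood apart from all OFF libraries. Gars remained low at 105, 103 and 113 CPM (log2 -1.33, SE 0.12, adjusted p = 2.29e-08), and no library reached the ON range. Yars, the tyrosyl enzyme (chromosome 4, 129189760 to 129219607, plus strand), read 53.3, 59.0 and 50.1 CPM in ON, 25.1, 28.6 and 24.7 in OFF24 and 24.2, 20.2 and 22.7 in OFF48 (48 h log2 -1.25, SE 0.14, adjusted p = 6.19e-07). Iars stood at 38.6, 42.7 and 37.3 CPM (log2 -1.20, SE 0.13) and Wars at 10.1, 18.0 and 15.2 CPM (log2 -1.22, SE 0.22) in OFF48, all below their ON libraries.

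The 3 genes that had not passed at 24 h had smaller changes at 48 h than most of the list. Qars was at 47.0, 59.2 and 56.3 CPM (log2 -0.36, SE 0.13, adjusted p = 0.0301), Dars at 65.4, 96.7 and 74.9 CPM (log2 -0.42, SE 0.14, adjusted p = 0.0177) and Vars at 22.1, 15.7 and 24.5 CPM (log2 -0.66, SE 0.19, adjusted p = 0.00831). The OFF48 libraries of Dars overlapped ON, and those of Qars and Vars did not. Farsa, the catalytic subunit that pairs with Farsb, read 388, 489 and 391 CPM in ON and 311, 373 and 201 in OFF48 (log2 -0.54, SE 0.17, adjusted p = 0.0194), with wide spread in OFF48. The calls of Dars, Farsa, Qars and Vars at 48 h were each lost when 1 library was left out: Qars without ON replicate 2 (log2 -0.27, adjusted p = 0.114) or OFF48 replicate 1 (-0.26, 0.164), Dars without ON replicate 2 (-0.30, 0.0803), OFF48 replicate 1 (-0.29, 0.124) or OFF48 replicate 3 (-0.38, 0.0628), Farsa without ON replicate 2 (-0.42, 0.0785) or OFF48 replicate 3 (-0.31, 0.0528), and Vars without ON replicate 1 (-0.53, 0.0536). The call of Qars was also lost with DESeq2 (adjusted p = 0.0658).

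The subunits of the phenylalanyl enzyme, which work as a tetramer of both, moved by different amounts. The log2 ratio of Farsb to Farsa counts was -1.20, -1.37 and -1.01 in ON, -1.96, -1.90 and -1.80 in OFF24 and -2.56, -2.87 and -1.87 in OFF48. Its mean was -1.19 ± 0.18 (SD, n = 3), -1.89 ± 0.08 and -2.43 ± 0.51, and no OFF library reached the ON range. Only the change of this ratio can be read, since the 3' tags of 2 genes are not measured with the same efficiency.

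Within the cytosolic list the 8 complex members and the 12 free enzymes both moved mostly down. The counts in this paragraph stand beside 17.4% of all tested genes that fell at 24 h and 23.9% at 48 h. Of the complex members 6 fell at 24 h (median log2 -0.84) and 8 at 48 h (-1.0), and of the free enzymes 11 and 12 (-1.06 and -1.11). By catalytic fold, 7 of 9 class I enzymes fell at 24 h and 9 at 48 h (medians -1.05 and -0.91), against 9 and 10 of 10 class II enzymes (-0.91 and -1.07). The bifunctional Eprs holds a domain of each class and was left out of that split. Both dual-compartment genes fell at both times, Gars as above and Kars, the lysyl enzyme, at log2 -0.75 and -1.09 (SE 0.14 and 0.15).

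All 12 cytosolic genes that are commonly listed as ATF4 targets (Aars, Cars, Eprs, Gars, Iars, Lars, Mars, Nars, Sars, Tars, Wars and Yars) fell at 24 h and at 48 h, with medians of -1.06 and -1.16. Of the 8 others 5 fell at 24 h and 8 at 48 h, with medians of -0.76 and -0.71, and these 8 include Farsb and Rars beside Qars, Dars and Vars. Among all tested genes 17.4% fell at 24 h and 23.9% at 48 h. The difference between the lists was not tested. Atf4 itself read 802, 978 and 909 CPM in ON, 328, 321 and 343 in OFF24 and 389, 493 and 294 in OFF48 (log2 -1.44, SE 0.14, and -1.20, SE 0.14, adjusted p = 7.75e-07 and 2.12e-06). Myc read 23.0, 26.3 and 19 CPM in ON, 7.94, 9.73 and 8.04 in OFF24 and 4.03, 8.25 and 8.16 in OFF48 (log2 -1.41, SE 0.22, and -1.79, SE 0.24, adjusted p = 7.80e-05 and 6.79e-06). Neither gene's OFF libraries overlapped ON.

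Promoter sequence was compared because it was not used to choose the genes. RefSeq windows of 250 bases before to 50 after the start site (GRCm38.p6, the same assembly as the mm10 build of the submitters' processing notes) were matched for 27 of the 36 genes, 13 cytosolic and 14 mitochondrial. Those not matched were Cars, Hars, Lars, Nars, Rars, Vars, Wars, Hars2 and Pars2. The CARE core TGATGNAA, the element bound by ATF4 with C/EBP partners, was searched on both strands and occurred in 5 of the 13 cytosolic windows (Aars, Gars, Iars, Tars and Yars) and in 0 of the 14 mitochondrial ones, against 3.97% of 32851 mouse windows. All 5 genes are on the list of ATF4 targets. That list may rest partly on such sites, so the overlap is not an independent observation. The E-box CACGTG, which MYC and MAX bind, occurred in 4 cytosolic windows (Aars, Farsb, Iars and Tars) and in 1 mitochondrial window (Ears2), against 7.15% of all windows. The E-box and the CARE core did not overlap each other in any of these windows. A match describes the letters only, and the absence of one says nothing about the factor.

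The windows of Iars and Tars hold both motifs, that of Farsb, the cytosolic gene that fell most at 48 h, only the E-box, and that of Yars2, a mitochondrial gene that fell at both times, neither. They are shown 5′ to 3′ on the strand of the gene, with each CARE core and E-box in capitals, at chr13:49681880-49682179 (plus strand) for Iars, chr15:11399609-11399908 (minus) for Tars, chr1:78488848-78489147 (minus) for Farsb and chr16:16302715-16303014 (plus) for Yars2.
Iars: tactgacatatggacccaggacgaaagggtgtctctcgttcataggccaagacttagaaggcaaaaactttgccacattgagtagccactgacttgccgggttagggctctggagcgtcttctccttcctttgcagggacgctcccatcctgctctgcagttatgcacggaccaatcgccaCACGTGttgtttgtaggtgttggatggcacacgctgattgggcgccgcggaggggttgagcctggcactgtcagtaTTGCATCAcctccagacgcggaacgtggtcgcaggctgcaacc
Tars: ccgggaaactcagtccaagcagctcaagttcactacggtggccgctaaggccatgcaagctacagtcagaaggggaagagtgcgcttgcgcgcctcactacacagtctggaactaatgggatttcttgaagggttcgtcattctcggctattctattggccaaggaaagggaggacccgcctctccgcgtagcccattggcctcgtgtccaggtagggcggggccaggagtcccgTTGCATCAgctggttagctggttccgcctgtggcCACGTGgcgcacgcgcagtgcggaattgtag
Farsb: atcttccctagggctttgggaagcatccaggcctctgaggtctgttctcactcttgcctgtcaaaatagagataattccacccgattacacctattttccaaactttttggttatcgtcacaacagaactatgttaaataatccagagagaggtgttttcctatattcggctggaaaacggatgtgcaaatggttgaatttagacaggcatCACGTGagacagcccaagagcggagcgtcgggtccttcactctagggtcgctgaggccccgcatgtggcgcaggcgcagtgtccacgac
Yars2: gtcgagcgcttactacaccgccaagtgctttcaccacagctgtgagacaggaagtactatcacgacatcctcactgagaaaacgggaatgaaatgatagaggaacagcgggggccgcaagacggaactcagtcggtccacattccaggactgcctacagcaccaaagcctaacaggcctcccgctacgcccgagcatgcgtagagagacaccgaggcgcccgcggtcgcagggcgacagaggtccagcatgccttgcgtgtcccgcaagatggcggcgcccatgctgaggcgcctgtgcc

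The sites of Gars and Yars, with 11 bases on either side, lie at chr6:55037960-55037989 (plus strand) for Gars and chr4:129189895-129189924 (plus) for Yars. They are shown to compare the core and its orientation.
Gars: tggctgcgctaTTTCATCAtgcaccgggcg
Yars: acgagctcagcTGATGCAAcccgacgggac

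In Iars, Tars and Gars the core reads on the opposite strand of the gene, and in Yars on the gene's own strand. Of the sites shown, that of Gars lies 30 bases upstream of the RefSeq start site that sets the window. The others lie 15 upstream in Tars, 3 downstream in Yars and 7 downstream in Iars. These start sites can differ from the gene starts in the positions given above, which come from GENCODE. At 24 h the 5 genes with a CARE core had log2 fold changes from -1.40 to -1.05 with a median of -1.19, and the 8 cytosolic genes whose window had none ranged from -1.45 to 0.11 with a median of -0.71. At 48 h the medians were -1.24 and -0.98, with ranges of -1.33 to -0.86 and -1.79 to -0.36. The ranges overlap at both times, and Farsb, without a core, had a lower log2 fold change than each of the 5 genes with one at both times.

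Turning to the mitochondrial enzymes, the 2 that fell at 24 h were Ears2 and Yars2. Ears2, the glutamyl enzyme, which also starts the route to mitochondrial glutaminyl-tRNA, read 9.18, 8.60 and 6.44 CPM in ON, 2.93, 2.51 and 4.77 in OFF24 and 4.03, 5.25 and 3.21 in OFF48 (log2 -1.23, SE 0.32, and -1.06, SE 0.32, adjusted p = 0.00497 and 0.0107). Yars2, the tyrosyl enzyme (chromosome 16, 16302965 to 16309640, plus strand), read 11, 15.7 and 13.2 CPM in ON, 4.18, 9.42 and 4.47 in OFF24 and 5.03, 6.0 and 4.08 in OFF48 (log2 -1.12, SE 0.28, and -1.46, SE 0.31, adjusted p = 0.00451 and 0.000628). All OFF libraries of both genes lay below their ON libraries. These values rest on few counts. Ears2 had 7, 8 and 16 in OFF24 and 12, 7 and 11 in OFF48. Yars2 had 10, 30 and 15 in OFF24 and 15, 8 and 14 in OFF48. The call of Ears2 at 48 h was lost without OFF48 replicate 3 (log2 -0.87, adjusted p = 0.0734).

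Nars2, the asparaginyl enzyme (chromosome 7, 96951505 to 97064758, plus strand), changed late. It read 6.12, 6.88 and 8.23 CPM in ON, 6.69, 4.39 and 4.77 in OFF24, which overlapped ON, and 1.68, 1.5 and 2.04 in OFF48, below every other library. Those OFF48 values rest on 5, 2 and 7 counts. The log2 fold change was -0.43 at 24 h (SE 0.28, adjusted p = 0.255) and -1.93 at 48 h (SE 0.37, adjusted p = 0.000246), the largest fall of any synthetase gene at 48 h. Iars2, the isoleucyl enzyme, read 33.7, 40.5 and 37.6 CPM in ON, 30.1, 26.7 and 32.2 in OFF24 and 25.8, 21.0 and 25.4 in OFF48, and passed at 48 h (log2 -0.60, SE 0.15, adjusted p = 0.00276). Its libraries did not overlap ON at either time.

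Wars2 and Cars2, the tryptophanyl and cysteinyl enzymes, were the only synthetase genes that rose against ON, both at 48 h. Wars2 read 2.81, 3.93 and 2.15 CPM in ON, 2.93, 4.08 and 5.06 in OFF24 and 6.04, 6.0 and 7.87 in OFF48 (48 h log2 1.15, SE 0.34, adjusted p = 0.00895). It had 6 to 27 counts per library. Cars2 read 24.2, 21.9 and 18.6 CPM in ON, 28, 18.8 and 23.8 in OFF24 and 32.9, 27.0 and 45.2 in OFF48 (48 h log2 0.74, SE 0.19, adjusted p = 0.00318). The OFF48 libraries lay above ON for both genes, and the OFF24 libraries overlapped it. Both calls were lost without OFF48 replicate 3, at log2 0.98 (adjusted p = 0.0668) for Wars2 and 0.50 (0.0564) for Cars2. The tryptophanyl pair therefore had log2 values of opposite sign at 48 h, -1.22 for the cytosolic and 1.15 for the mitochondrial gene.

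**Figure D3:**
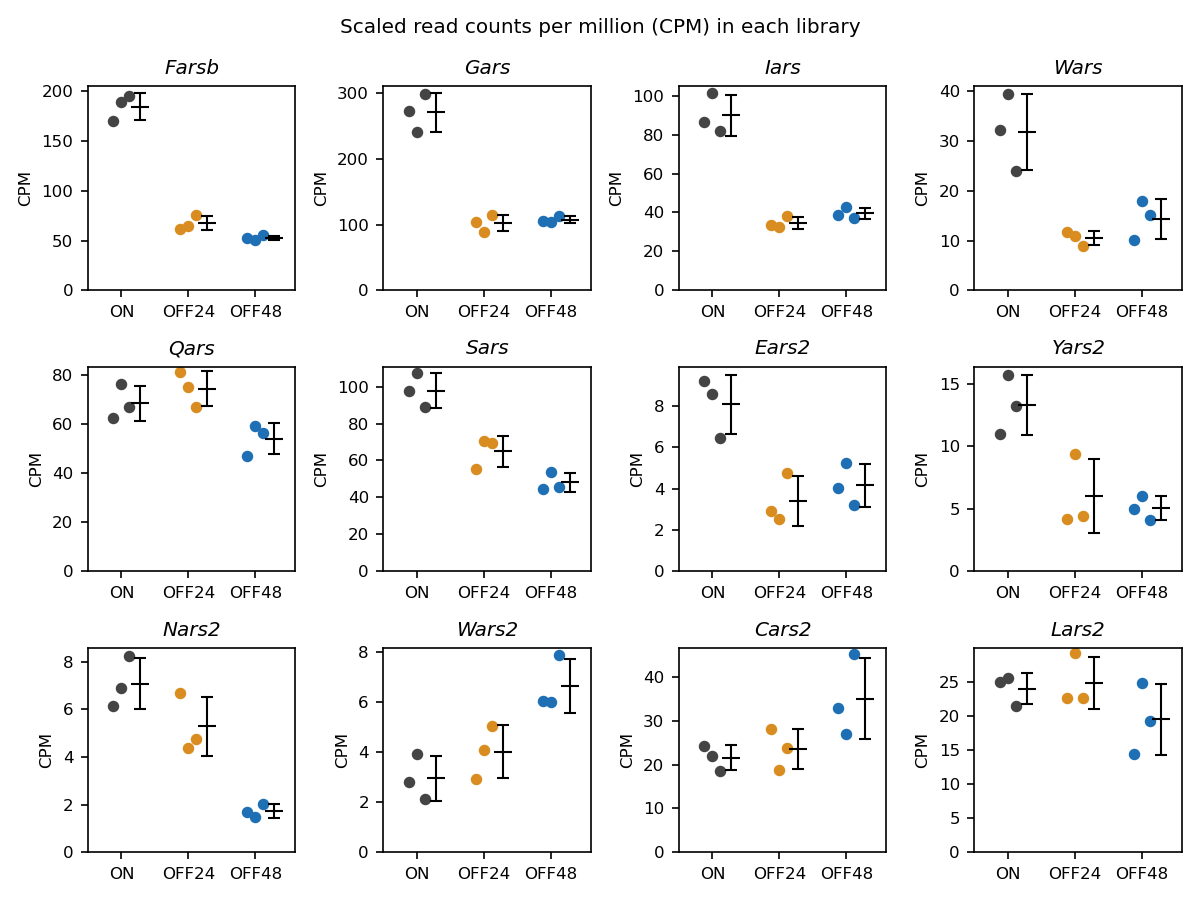
Level in CPM of 12 synthetase genes in each library of ON (grey), OFF24 (orange) and OFF48 (blue), with the mean and SD of each group as black bars beside the points; each panel has its own axis from 0. The cytosolic Farsb, Gars, Iars and Wars are low in both OFF groups, Qars and Sars are lowest at 48 h, Nars2 is low at 48 h, and Wars2 and Cars2 are high at 48 h.

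Hars2 and Lars2, the histidyl and leucyl enzymes, changed sign between the times without passing at either. Hars2 read 20.1, 22.4 and 21.1 CPM in ON, 24.2, 20.7 and 19.7 in OFF24 and 25.8, 7.50 and 22.7 in OFF48 (log2 0.01, SE 0.23, and -0.04, SE 0.24, adjusted p = 0.977 and 0.895). The low OFF48 value is replicate 2, with 10 counts in the shallowest library, and without it the 48 h value was 0.19. Lars2 read 25, 25.5 and 21.5 CPM in ON, 22.6, 29.2 and 22.6 in OFF24 and 14.4, 24.7 and 19.2 in OFF48 (log2 0.04, SE 0.18, and -0.38, SE 0.19, adjusted p = 0.872 and 0.115), with overlap at both times. It passed at 48 h without OFF48 replicate 2 (log2 -0.51, adjusted p = 0.0385).

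The remaining 8 mitochondrial genes (Aars2, Fars2, Mars2, Pars2, Rars2, Sars2, Tars2 and Vars2) passed in neither comparison against ON. Their log2 fold changes ran from -0.49 (Vars2) to 0.44 (Fars2) at 24 h and from -0.84 (Aars2) to 0.74 (Pars2) at 48 h. These values rest on few reads, and the precision differed between the lists. A cytosolic gene had 21 to 1991 counts per library and a mitochondrial one 2 to 165, and the median SE at 24 h was 0.13 for the first and 0.28 for the second. Of the 14 mitochondrial genes that did not pass at 24 h, the approximate 95% interval put a 2-fold fall outside for 11, and at 48 h this held for 7 of 10. For the others a 2-fold fall was not excluded at this depth.

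**Figure D4:**
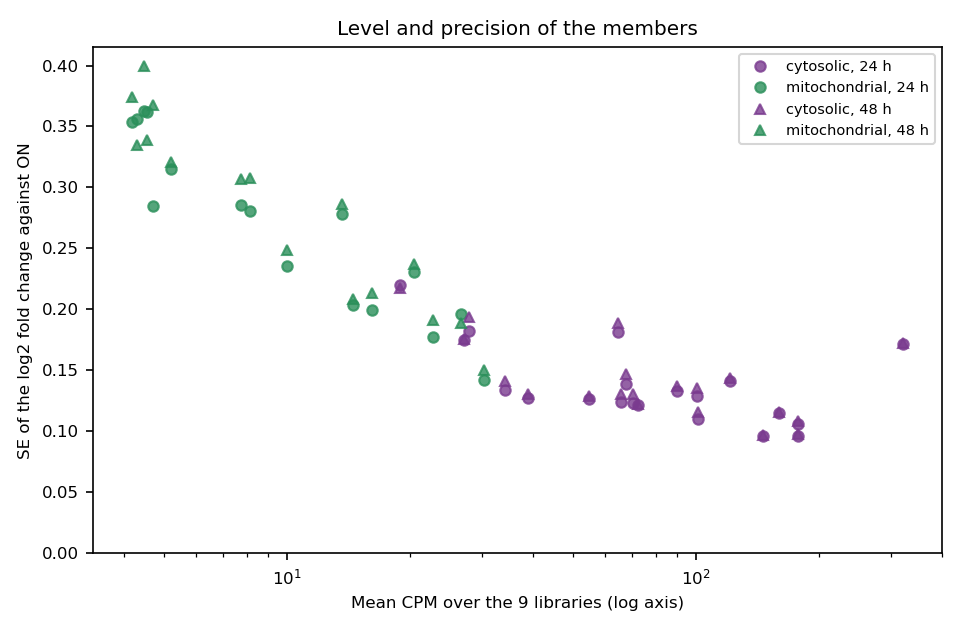
Standard error of the log2 fold change against ON for each synthetase gene, plotted against its mean CPM over the 9 libraries on a log axis, at 24 h (circles) and 48 h (triangles). Cytosolic genes (purple) lie at higher levels and mostly lower errors than mitochondrial genes (green), whose errors reach 0.40 at 48 h.

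To compare the compartments for the same amino acid, the log2 ratio of the cytosolic to the mitochondrial gene was taken within each library, which does not depend on how libraries are scaled. There were 17 such pairs, in which Fars2 and Eprs each occur in 2. At 24 h the ratio was below ON without overlap in 10 pairs, above it in 0 and overlapping in 7, with a median change of -0.88. At 48 h it was below in 7, above in 1 and overlapping in 9, with a median change of -0.55. The share of other gene pairs that separate in this way was not computed, so these counts have no background. The mitochondrial genes had 2 to 165 counts per library, so some ratios rest on few reads.

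The tryptophanyl pair moved most. Its log2 ratio was 3.52, 3.32 and 3.48 in ON, 2.00, 1.43 and 0.82 in OFF24 and 0.74, 1.58 and 0.95 in OFF48, changes of -2.02 and -2.35. The next was Farsb to Fars2, at 4.06, 4.58 and 4.70 in ON, 2.69 or lower in OFF24 and 2.63 or lower in OFF48, changes of -1.89 and -2.02. In both pairs all OFF libraries lay below ON. Wars2 had 6 to 27 counts per library and Fars2 11 to 48. The asparaginyl pair turned, with a log2 ratio of Nars to Nars2 of 5.44, 5.42 and 5.03 in ON, 4.39, 4.85 and 4.85 in OFF24 and 5.98, 6.47 and 5.99 in OFF48. It lay below ON at 24 h (change -0.60) and above it at 48 h (change 0.85), without overlap at either time. The 48 h ratio rests on 5, 2 and 7 counts of Nars2. The tyrosyl pair and Eprs to Ears2 overlapped ON at both times, with changes of 0.18 and 0.13 for the first and 0.27 and -0.18 for the second; both their members had fallen.

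**Figure D5:**
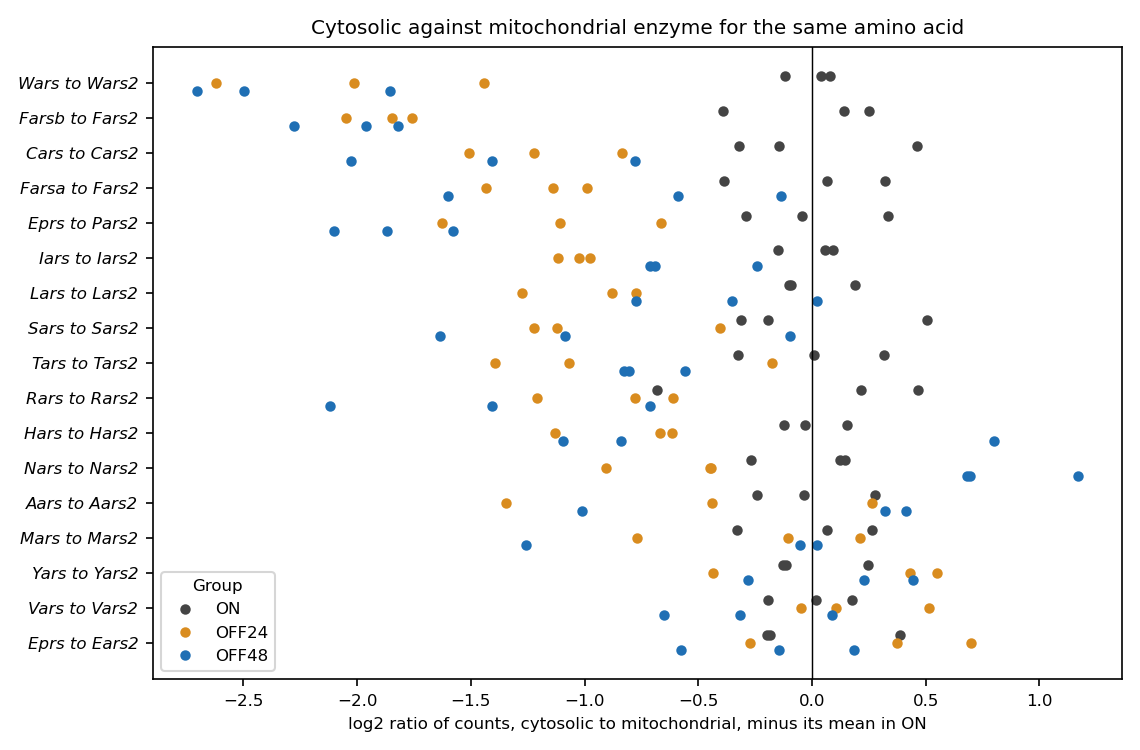
Log2 ratio of the cytosolic to the mitochondrial gene for the same amino acid in each library of ON (grey), OFF24 (orange) and OFF48 (blue), after subtraction of the mean ratio in ON; a point left of 0 has relatively less of the cytosolic gene. Wars to Wars2 and Farsb to Fars2 lie farthest left, and Nars to Nars2 lies right of 0 at 48 h.

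The comparison of OFF48 with OFF24 covers the second day without doxycycline. Between OFF24 and OFF48, 2 of the 20 cytosolic genes fell and 0 rose (median log2 -0.13), where 11.2% of all tested genes fell and 9.99% rose. The number that fell was near the share of all tested genes. At an unadjusted p under 0.05 in edgeR 1 cytosolic gene rose (Lars, log2 0.24), and DESeq2 and limma called 0 higher. Qars went from 81.1, 75.3 and 67.0 to 47.0, 59.2 and 56.3 CPM (log2 -0.47, SE 0.13, adjusted p = 0.0146). Sars, the seryl enzyme, went from 55.2, 70.3 and 69.4 to 44.6, 54.0 and 45.8 CPM (log2 -0.46, SE 0.14, adjusted p = 0.0189), after 97.4, 107 and 88.7 CPM in ON. For both genes all OFF48 libraries lay below OFF24. The cytosolic count ran from 0 to 3 when single libraries were left out. It was 0 without OFF24 replicate 2 or OFF48 replicate 1, and 1 without OFF24 replicate 1, OFF24 replicate 3 or OFF48 replicate 3. Without OFF48 replicate 3 Farsa counted as higher than at 24 h (log2 0.47, adjusted p = 0.0122).

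Of the 16 mitochondrial genes 1 fell and 1 rose from 24 h to 48 h (median log2 -0.19), against the same 11.2% and 9.99% of all tested genes. Nars2 fell (log2 -1.5, SE 0.40, adjusted p = 0.01), from 4.39 CPM or more in OFF24 to 2.04 or less in OFF48. Cars2 rose (log2 0.64, SE 0.19, adjusted p = 0.0221), although its groups overlapped. That rise was lost without OFF24 replicate 2 (0.51, adjusted p = 0.111), OFF24 replicate 3 (0.67, 0.0574) or OFF48 replicate 3 (0.41, 0.185).

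Genes for proteins that work with the synthetases were read beside the shares of all tested genes that fell, 17.4% at 24 h and 23.9% at 48 h. Of the 3 scaffold genes of the complex 2 fell at 24 h and 3 at 48 h. Eef1e1, also called p18, read 51.5, 41.8 and 39.7 CPM in ON, 15.5, 13.8 and 16.4 in OFF24 and 8.72, 6.75 and 6.71 in OFF48 (log2 -1.55, SE 0.16, and -2.57, SE 0.19, adjusted p = 8.10e-07 and 3.00e-09). Its 3 groups did not overlap, and it also fell from 24 h to 48 h (log2 -1.02, SE 0.23, adjusted p = 0.00294). Aimp2 (p38) fell at both times (log2 -1.04 and -1.24, adjusted p = 0.00102 and 0.000193), whereas Aimp1 (p43) read 0.06 at 24 h (adjusted p = 0.731) and fell at 48 h (-0.57, adjusted p = 0.000965).

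Of 14 genes for the processing, export and editing of cytosolic tRNA 13 were tested, and 6 fell at 24 h and 8 at 48 h (medians -0.44 and -0.77), against the same 17.4% and 23.9% of all tested genes. The smallest p-values were those of Nsun2, a tRNA cytosine methyltransferase (log2 -1.23 and -1.83), Xpot, the tRNA export receptor (-0.99 and -0.87), Aarsd1, an alanyl-tRNA editing protein (-0.84 and -0.80), and Ssb, the La protein that binds new tRNA ends (-0.50 and -0.82). A further 14 genes have a role in mitochondrial tRNA, which need not be their only role. Of these 4 fell at 24 h and 5 at 48 h (medians -0.38 and -0.46), which is not far above the 17.4% and 23.9% of all tested genes. Among them Qrsl1, the amidotransferase subunit that completes mitochondrial glutaminyl-tRNA after Ears2, had log2 fold changes of -1.24 and -1.28, Pus1, a pseudouridine synthase, of -1.12 and -0.96, and Trit1, an isopentenyl transferase, of -0.90 and -1.25. Elac2, which trims tRNA 3' ends, fell at both times (-0.93 and -0.75), and Mtfmt, which formylates the initiator methionyl-tRNA, fell at 48 h (-0.80) after -0.16 at 24 h (adjusted p = 0.537).

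Tags are counted at the 3' end, so genes that share it matter. In GENCODE vM21 (GRCm38) the last 400 bases of Aars overlap an exon of Exosc6 on the same strand, and Exosc6 fell alike (log2 -1.05 and -0.90). An exon on the opposite strand overlaps the 3' end of Mars (Ddit3, -0.77 and -0.92), Yars (C77080, 0 to 2 counts per library), Cars2 (Naxd, 0.15 and 0.20, neither past the threshold) and Iars2 (Rab3gap2, 0.61 and 0.36, the first past it). The strand setting of the counting is not given in the sources used here, so Mars, Yars, Cars2 and Iars2 are uncertain to that extent. The Exosc6 exon lies on the same strand as Aars, so Aars is uncertain whatever that setting. No synthetase gene had the same counts as another row of the table.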

How the data were processed

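Messenger RNA was measured in 9 libraries made with the Lexogen QuantSeq 3' kit from column-purified, DNase-treated RNA, per the labels' protocols. The submitters' processing notes name the build mm10 and, in no stated order, limma 3.42.2, R 3.6.1, featureCounts from Subread 1.5.0-p3, HISAT2 2.0.4, cutadapt 1.5, FastQC 0.11.2 and bcl2fastq 2.17.1.14. Not given in the sources used here are the annotation, the strand setting and the treatment of multiply mapped reads.

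In the deposited table of counts each library has unnormalised whole-number read counts per gene symbol. A second deposited table of log2 values, normalised by the authors with voom and limma per its name, has 10552 rows and served only as an alternative.

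Groups came from the sample titles. In R 4.3.3, edgeR 4.0.16 was run on the counts of all 9 libraries (filterByExpr, TMM, robust quasi-likelihood F test, Benjamini-Hochberg adjustment over 10215 genes, threshold 0.05), after a test on simulated data. SE is the absolute log2 fold change divided by the square root of F. The tables give no molecular identifiers, so limits cover counting error only; a count of 0 allows 3 counts, or 0.743 to 2.26 CPM. Chi-square values between replicates (1.99 to 6.99 per degree of freedom) exceeded counting error. Alternatives used RLE, upper quartile or no scaling, no filter, DESeq2 1.42.0, limma 3.58.1 with voom or on the log2 table, the compared groups alone, a replicate block, and each library left out.

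The genes and lists were chosen with earlier results of these data known. Values per library are given for the 4 cytosolic and the 4 mitochondrial genes with the largest change past the threshold in each comparison, for genes that did not pass where most of their list did, and for genes whose sign against ON differed between 24 h and 48 h; other lists name up to 4 genes of smallest p. Mars, Farsa and Iars2 at 24 h were added after their values were seen. The name of 1 marker gene on these lists and the motif sites of 1 promoter are not reported here.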

Additional observations from a re-analysis of the deposited data

Results flagged for a closer look

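For 4 of the 36 genes the change against ON differed between 24 h and 48 h by the direct edgeR test of OFF48 against OFF24. In that test 11.2% of all tested genes fell and 9.99% rose, so 4 genes are fewer than these shares would give. Qars (log2 -0.47, adjusted p = 0.0146) had read 0.11 against ON at 24 h and -0.36 at 48 h, and all 3 OFF48 libraries lay below OFF24. Sars (log2 -0.46, adjusted p = 0.0189) fell at both times, from -0.59 to -1.05 against ON, also without overlap. Nars2 (log2 -1.5, adjusted p = 0.01) rests on 2 to 7 counts per library in OFF48, and its groups did not overlap. Cars2 (log2 0.64, adjusted p = 0.0221) rose in the mean, while its OFF24 and OFF48 libraries overlapped. Nars2 kept its call under every alternative run, and the other 3 did not.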

How the results depend on the processing

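At 24 h the calls of 17 cytosolic and 2 mitochondrial genes held under all 18 alternatives; at 48 h those of 16 of 20 cytosolic genes, 3 of 4 lower and 0 of 2 higher mitochondrial genes did. With single libraries left out, the 24 h median log2 fold change ran from -1.05 to -0.97 (cytosolic) and from -0.31 to -0.15 (mitochondrial); the 48 h cytosolic median ran from -1.12 to -1.0, and the count of higher mitochondrial genes from 0 to 2. The 24 h mitochondrial median was -0.20 with upper quartile scaling, -0.28 without a filter and -0.31 on the log2 table.

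Between 24 h and 48 h the number of cytosolic genes that fell was 4 with upper quartile scaling, 4 on the log2 table and 4 with the replicate block, which added Farsb (adjusted p = 0.0287) and Rars (0.0281). With libraries left out it ran from 0 to 3, that of cytosolic genes that rose from 0 to 1 and that of mitochondrial genes that rose from 0 to 1. The mitochondrial median ran from -0.19 to -0.019 there and was 0.0037 on the log2 table, where 0 mitochondrial genes rose. The causes were not tested.

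Genes near 0 changed sign. At 24 h Hars2 was -0.0024 with RLE, -0.0062 with library size only and -0.026 without a filter, and Pars2 -0.11 on the log2 table. With libraries left out, 24 h values ran from -0.0857 to 0.0589 for Hars2, -0.11 to 0.0983 for Lars2, -0.14 to 0.28 for Pars2 and -0.0387 to 0.23 for Cars2, and 48 h values from -0.28 to 0.19 for Hars2, -0.42 to 0.12 for Rars2 and -0.24 to 0.29 for Sars2. Ears2 lost its 48 h call on the log2 table (-0.90, adjusted p = 0.0526). Vars2 passed at 24 h without ON replicate 2 (-0.61, adjusted p = 0.0406), Tars2 at 48 h with only the groups compared (-0.49, 0.047) or without OFF24 replicate 1 (0.035), and Aars2 at 48 h without OFF48 replicate 2 (-1.18, 0.0286).

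Replicate numbers gave a weak and uneven pairing of the libraries. Deviations of same-numbered libraries correlated at 0.0045 to 0.43, over 0.1 in 5 of 9 pairs. Those of differently numbered libraries correlated at -0.32 to 0.21, and 4 of 9 libraries correlated best with their own number. With the replicate block 2015 of all tested genes fell and 2185 rose at 24 h, against 1781 and 1822 in the main run. Between 24 h and 48 h these counts were 1387 and 1314, against 1140 and 1020. The replicate block moved the cytosolic count of falls from 24 h to 48 h from 2 to 4 and no other synthetase count by over 1.5 times. Depth limits the mitochondrial genes most.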
